A study of Mus musculus with 20 samples.

Results

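The measurement described here is the departure from additivity of 2 adenoviral vectors, p19Arf and IFNbeta, injected alone or together into mouse tumors. For each gene it is the difference between the p19Arf+IFNbeta and IFNbeta group means minus the difference between the p19Arf and eGFP group means, all on the log2 scale. A value of 0 means that the log2 differences of the single vectors from eGFP add up to that of the combination, which on a linear scale means that their folds multiply. A negative value means that the combination lay below this additive prediction, and a positive value that it lay above it. All 20 of the 20 arrays of the series entered the calculation, 5 for each of 4 groups, and it was made for all 19938 genes that had a probe set with 1 gene symbol. A gene with several such probe sets was represented by the one whose mean across the 20 arrays was highest.

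The samples were tumors that LLC-1 cells, an established line from a Lewis lung carcinoma, formed after implantation in C57Bl/6 mice. The groups received intratumoral adenovectors carrying p19Arf together with IFNbeta, IFNbeta alone, p19Arf alone, or enhanced green fluorescent protein (eGFP), so every group, the eGFP controls included, received adenovector. Per the labels, 5 injections were given 48 h apart, each of 25 µl with a viral load of 100000000, for which no unit is stated. The sources used here do not give how this load was divided between the vectors of the combination, the promoter driving each transgene or the time from the last injection to RNA extraction, so the dose of each single vector in the combination may differ from that in the single-vector groups. The tumors came from 1 cell line, and the labels number the tumors without saying whether each came from a separate animal, so p-values here measure the spread between these arrays.

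p19Arf is the product of the alternative reading frame of Cdkn2a. It binds Mdm2, the ubiquitin ligase that marks p53 for destruction, and so lets p53 accumulate and switch on genes of cell cycle arrest and cell death. IFNbeta is a type I interferon. It acts through the receptor Ifnar, the kinases Jak1 and Tyk2 and the factor ISGF3, which binds the interferon-stimulated response element upstream of antiviral and immune genes. Interferon signalling and p53 are known to meet at several points, among them the induction of Trp53 itself by type I interferon in cultured cells.

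The deposited log2 values ran from 2.33 to 14.7, with array medians from 7.49 to 7.61. Correlations between arrays of the same group ran from 0.951 to 0.994, and no pair of arrays shared more than 0.0366% of identical values. The spread of values within an array (SD over probe sets) ran from 1.99 to 2.15 and averaged 2.06 ± 0.05 in p19Arf+IFNbeta, 2.11 ± 0.04 in IFNbeta, 2.06 ± 0.05 in p19Arf and 2.11 ± 0.03 in eGFP (SD, n = 5 each). An array with a narrower spread places highly expressed genes lower and weakly expressed genes higher, which touches every list of generally high or low level below. IFNbeta replicate 3 stood apart by its skin epidermis genes and p19Arf replicate 4 by its olfactory receptor genes, with a mean log2 value of 5.94 against 5.29 to 5.49 in the other p19Arf arrays. In the carcinoma gene list Krt8 averaged 7.85 in p19Arf+IFNbeta, 7.60 in IFNbeta, 7.78 in p19Arf and 7.78 in eGFP, and the departures of its 7 members ran from −0.04 for Cdh1 to 0.26 for Krt8. The table carries no detection call, so a low value cannot be read as absence. In tumor pieces, fewer cells of a type and less RNA per cell cannot be told apart. Ifit3b, Oas1a and the olfactory receptors have close relatives that may bind the same probes, which makes their values uncertain.

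No gene departed from additivity past the threshold. In limma, 0 of 19938 genes had a Benjamini-Hochberg adjusted p under 0.05 (0%), and the smallest adjusted p was 1. At an unadjusted p under 0.05 there were 260 genes (1.3%), 162 above the additive prediction (0.813%) and 98 below it (0.492%), fewer than the 5% that a flat distribution of p-values would give. That split turned over the genes above the median level (35 above to 42 below), over all probe sets (268 to 358) and without p19Arf replicate 1 (91 to 112). The count itself was above 5% of the genes with array weights (1121). It was also above 5% without IFNbeta replicate 3 and p19Arf replicate 4 together (1304), a setting chosen after seeing the data. Departures of all genes had a median of 0.009, with quartiles at −0.10 and 0.11. A positive value was found for 10415 genes (52.2%) and a negative one for 9522 (47.8%). The values ran from −1.35 for Myh4, a fast muscle myosin, to 1.12 for Il1a, an inflammatory cytokine.

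**Figure D1:**
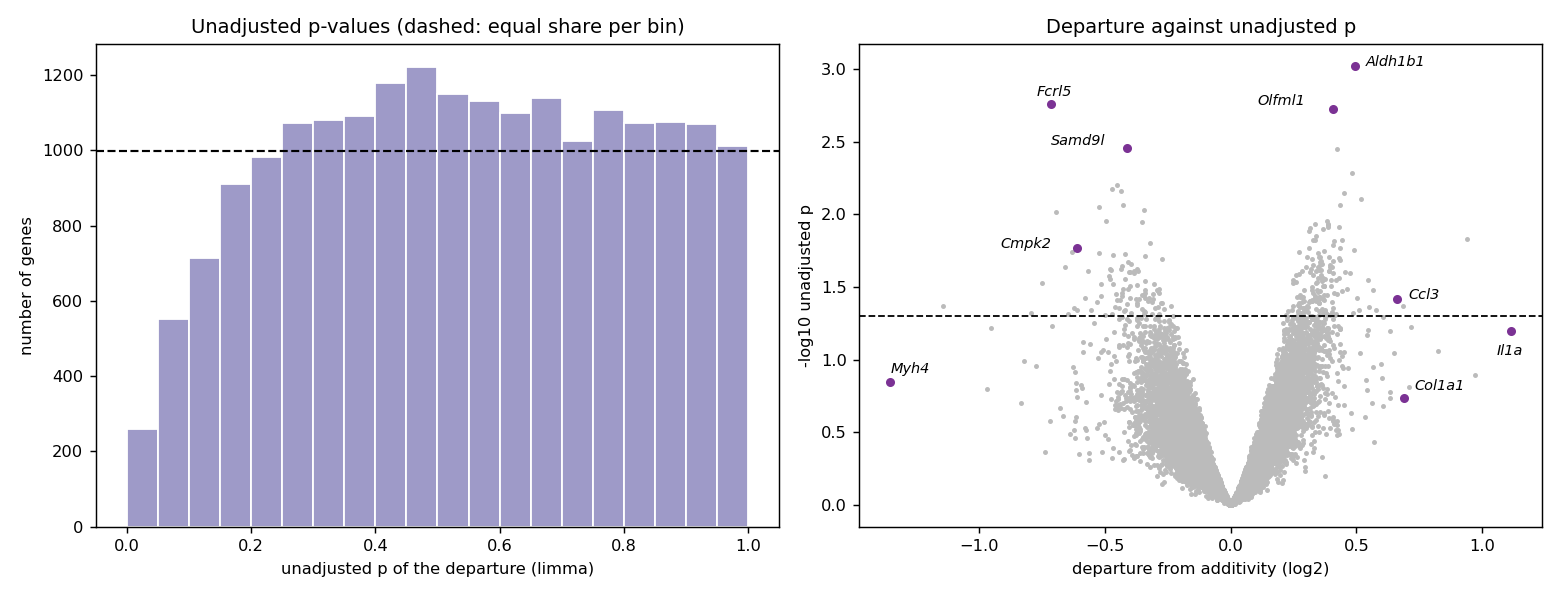
Left, the number of genes per bin of unadjusted p of the departure in limma, with a dashed line at an equal share per bin. Right, each gene's departure (log2) on the x axis and −log10 of its unadjusted limma p on the y axis, with a dashed line at the 0.05 level. The lowest bin holds 260 of the 19938 genes, fewer than the equal share, and Il1a and Myh4, the extremes in size, lie under the dashed line of the right panel.

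The size of the intervals says what these arrays could have shown. The median standard error of a departure was 0.165, and the median half-width of its 95% interval was 0.342 on the log2 scale, a 1.27-fold difference. From the 5th to the 95th percentile of genes the half-widths ran from 0.243 to 0.585. For 19589 genes (98.25%) the whole 95% interval lay between −1 and 1, so for these genes the intervals, each taken singly, leave out a departure of 2-fold or more in either direction. The plot of unadjusted p-values shows the counts thinning toward 0 rather than rising there.

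Cdkn2a and Ifnb1, the genes inserted in the vectors, gave no departure either. Cdkn2a measured 7.47, 7.25, 7.63, 7.82 and 7.56 on the p19Arf+IFNbeta arrays, 7.47, 7.29, 7.45, 7.29 and 7.39 on the IFNbeta arrays, 7.35, 7.42, 7.70, 7.81 and 7.61 on the p19Arf arrays and 7.38, 7.42, 7.54, 7.36 and 7.47 on the eGFP arrays. The highest 3 arrays of each p19Arf-carrying group lay above all 10 arrays without p19Arf, and the lowest 2 overlapped them. Its departure was 0.03 (95% interval −0.27 to 0.32). Ifnb1 measured 5.95, 5.90, 6.40, 6.07 and 5.81 in p19Arf+IFNbeta, 6.10, 6.03, 6.65, 6.06 and 6.20 in IFNbeta, 6.00, 5.61, 6.16, 6.17 and 6.04 in p19Arf and 6.25, 5.96, 6.10, 5.97 and 6.24 in eGFP. All 4 groups overlapped, and the departure was −0.07 (−0.46 to 0.31). Where these probe sets lie relative to the vector inserts was not analysed here, so neither value measures vector expression with certainty. Both departures were small enough that leaving out single arrays turned their sign.

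Most genes of the type I interferon response lay below the additive prediction, on a list chosen with earlier results of these data known. Of 38 measured list members, 35 had a negative and 3 a positive departure, beside 47.8% negative among all genes, with a median of −0.25 beside 0.009 for all genes. None passed after adjustment, and 5 had an unadjusted p under 0.05, all of them negative, beside 0.492% of all genes. The score of the list, its mean log2 value, was 9.45 ± 0.14 in p19Arf+IFNbeta against an additive prediction of 9.72, with 9.82 ± 0.25 in IFNbeta, 9.31 ± 0.24 in p19Arf and 9.41 ± 0.04 in eGFP (SD, n = 5 each). Its departure was −0.27 with a standard error of 0.17. The difference made by the IFNbeta vector was 0.14 when p19Arf was present (p19Arf+IFNbeta minus p19Arf) and 0.41 when it was absent (IFNbeta minus eGFP). p19Arf+IFNbeta lay above p19Arf for 30 of the 38 genes, while IFNbeta lay above eGFP for 38 of 38. p19Arf+IFNbeta lay above IFNbeta for 1 of 38, and p19Arf above eGFP for 8 of 38. All these counts come from the same 4 groups of arrays and are not separate pieces of evidence. The departure subtracts the IFNbeta mean, so a list of genes high in IFNbeta tends toward negative values.

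Single arrays weighed on that list score. By array it was 9.43, 9.59, 9.57, 9.39 and 9.26 in p19Arf+IFNbeta, 9.72, 9.64, 10.25, 9.66 and 9.85 in IFNbeta, 9.53, 9.52, 9.38, 9.08 and 9.03 in p19Arf and 9.37, 9.37, 9.41, 9.45 and 9.46 in eGFP. The IFNbeta arrays lay above all 15 others, with replicate 3 the highest, and the other 3 groups overlapped. Without IFNbeta replicate 3 the departure was −0.16, and with quality weights on the arrays it was −0.15. Leaving out each array in turn gave −0.34 to −0.16.

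**Figure D2:**
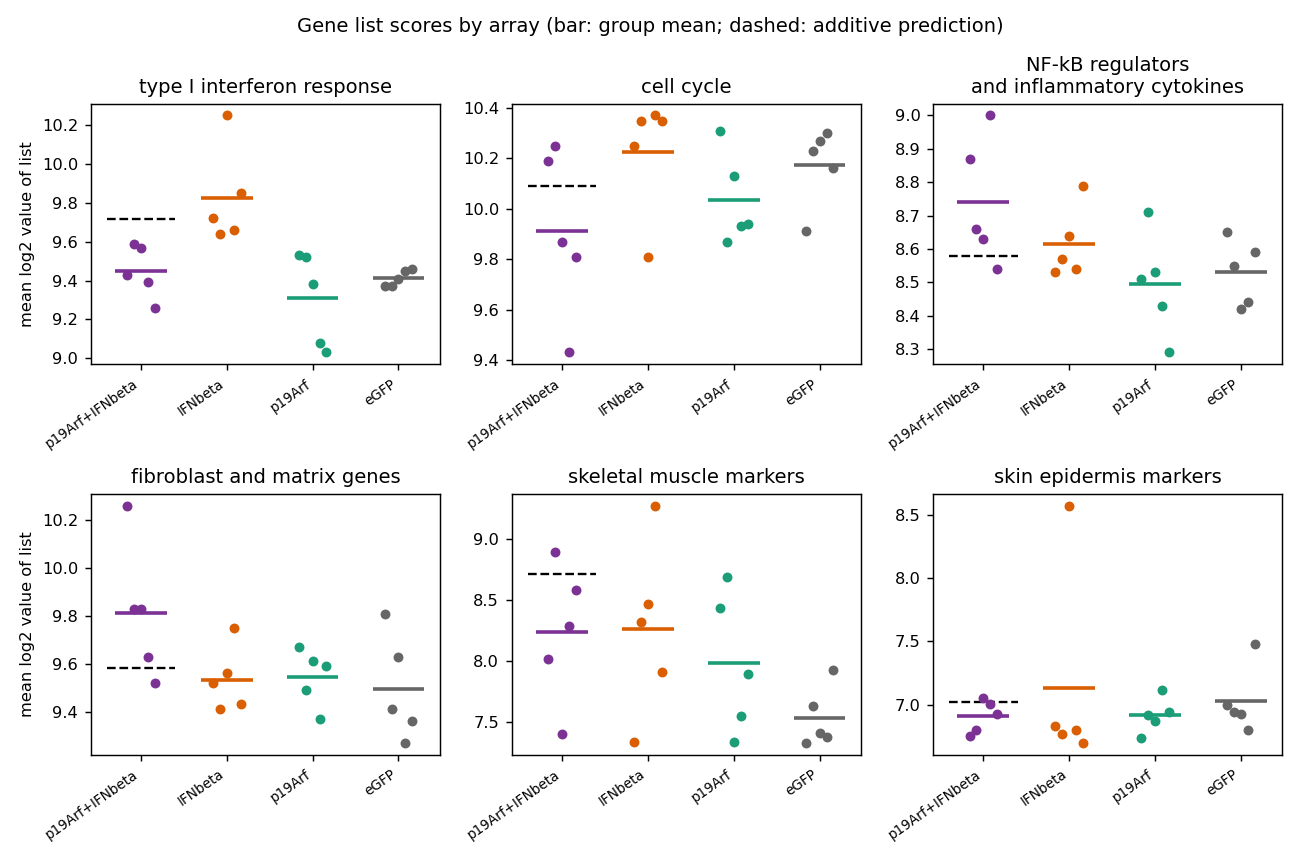
Mean log2 value of 6 gene lists on each array, by group, with the group mean as a bar and the additive prediction for p19Arf+IFNbeta as a dashed line. The interferon score of p19Arf+IFNbeta averaged 9.45 against a prediction of 9.72, and IFNbeta replicate 3 is the array at 8.57 in the skin epidermis panel.

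The interferon-stimulated response element, the site through which ISGF3 acts, was searched in the promoter windows of RefSeq genes (GRCm38.p6, 250 bases before to 50 after the start of each gene) as GAAA, any 2 bases, then GAAA on both strands. It was found in 16 of 33 windows of the 27 list genes that matched (48.5%), beside 627 of 19177 windows of all measured genes that matched (3.27%) and 1131 of all 32851 windows (3.44%). Of the 12 genes of smallest p above the prediction 8 matched, and none of their 8 windows held these letters. Of the 12 below it 10 matched, and none of their 13 windows did. So few windows cannot show whether these genes differ from the 3.27%. Within the list, Cmpk2 (−0.61), Ifit2 (−0.46), Ms4a4d (−0.42) and Samd9l (−0.41) held no match, while Oas1a (−0.51), Rsad2 (−0.46) and Stat2 (−0.08) did. A relation of the motif to the departure was not tested. The 3 windows shown belong to the genes of lowest departure among the 14 list genes with a match. Capitals mark each match. In Ifit3b (chr19:34607707-34608006, plus strand) it occurs 2 times, in Oas1a (chr5:120907476-120907775, minus strand) 2 overlapping copies read as 1 run, and in Rsad2 (chr12:26456403-26456702, minus strand) it occurs 1 time; in Ifit3b and Rsad2 the match is on the opposite strand and reads TTTC, any 2 bases, then TTTC.
Ifit3b: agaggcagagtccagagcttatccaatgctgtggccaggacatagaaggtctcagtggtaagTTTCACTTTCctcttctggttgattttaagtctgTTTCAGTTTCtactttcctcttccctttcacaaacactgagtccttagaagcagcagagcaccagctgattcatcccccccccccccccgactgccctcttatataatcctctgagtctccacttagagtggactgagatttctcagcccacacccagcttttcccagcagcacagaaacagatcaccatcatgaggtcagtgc
Oas1a: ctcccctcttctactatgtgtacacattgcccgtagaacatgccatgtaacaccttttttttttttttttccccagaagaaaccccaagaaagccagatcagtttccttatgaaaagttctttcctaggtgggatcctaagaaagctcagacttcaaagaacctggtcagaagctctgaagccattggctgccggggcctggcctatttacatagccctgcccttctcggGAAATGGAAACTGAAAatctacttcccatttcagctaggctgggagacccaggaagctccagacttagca
Rsad2: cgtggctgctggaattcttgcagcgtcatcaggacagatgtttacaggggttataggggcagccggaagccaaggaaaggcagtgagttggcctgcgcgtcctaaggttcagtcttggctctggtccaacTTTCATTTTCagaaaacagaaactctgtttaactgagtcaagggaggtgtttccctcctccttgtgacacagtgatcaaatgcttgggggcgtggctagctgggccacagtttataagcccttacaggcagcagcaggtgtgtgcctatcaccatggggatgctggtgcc

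Among effectors of the antiviral state, Ifit3b, of the RNA-binding Ifit family, measured 5.72, 6.08, 5.59, 5.76 and 6.07 in p19Arf+IFNbeta, 6.37, 6.20, 7.45, 6.54 and 6.30 in IFNbeta, 5.85, 5.37, 5.40, 5.07 and 5.44 in p19Arf and 5.61, 6.08, 5.60, 5.94 and 5.48 in eGFP. Every IFNbeta array lay above the other 15, and the departure was −0.41 (95% interval −0.97 to 0.14). Oas1a, which makes the oligoadenylates that activate RNase L, measured 8.94, 9.13, 9.36, 8.52 and 8.38 in p19Arf+IFNbeta, 9.05, 9.14, 9.76, 9.06 and 9.40 in IFNbeta, 8.88, 9.01, 9.08, 8.78 and 8.84 in p19Arf and 9.01, 8.67, 8.80, 8.74 and 8.88 in eGFP. p19Arf+IFNbeta spanned the whole range of the p19Arf and eGFP arrays and reached into that of IFNbeta. Its departure was −0.51 (−0.97 to −0.05, unadjusted p = 0.0303 in limma, adjusted p = 1). Rsad2, the antiviral enzyme viperin, measured 9.69, 9.95, 9.52, 10.08 and 9.40 in p19Arf+IFNbeta, 10.37, 10.11, 11.00, 10.18 and 10.61 in IFNbeta, 10.12, 9.80, 9.79, 9.44 and 9.11 in p19Arf and 9.43, 10.13, 9.94, 10.11 and 10.01 in eGFP. The IFNbeta arrays lay above all p19Arf+IFNbeta arrays but overlapped both other groups, with a departure of −0.46 (−1.01 to 0.10).

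Cmpk2, a mitochondrial nucleotide kinase encoded next to Rsad2, had the lowest departure of the list. It measured 8.66, 9.07, 8.79, 8.54 and 8.25 in p19Arf+IFNbeta, 9.43, 9.22, 9.75, 9.31 and 9.65 in IFNbeta, 9.25, 8.74, 8.88, 8.66 and 8.31 in p19Arf and 8.49, 8.96, 9.07, 9.07 and 9.23 in eGFP. Every IFNbeta array lay above every p19Arf+IFNbeta array, with 1 p19Arf and 1 eGFP array reaching into the IFNbeta range. The departure was −0.61 ± 0.24 (SE, 95% interval −1.10 to −0.12, unadjusted p = 0.017 in limma, adjusted p = 1). Samd9l, an interferon-induced restriction factor, measured 10.03, 10.23, 9.94, 9.75 and 9.96 in p19Arf+IFNbeta, 10.50, 10.49, 10.66, 10.46 and 10.57 in IFNbeta, 10.33, 10.13, 10.19, 10.02 and 10.33 in p19Arf and 10.27, 10.29, 10.29, 10.44 and 10.42 in eGFP. The 5 IFNbeta arrays lay above all others, and the 5 p19Arf+IFNbeta arrays lay below all eGFP arrays. The departure of −0.41 ± 0.13 (SE, −0.67 to −0.15) had an unadjusted p of 0.00352 in limma and an adjusted p of 1, and it stayed between −0.47 and −0.35 with each array left out in turn.

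Usp18, which removes Isg15 from proteins and binds the interferon receptor as a brake on signalling, measured 9.63, 10.01, 9.89, 9.58 and 9.44 in p19Arf+IFNbeta, 10.45, 10.06, 11.01, 10.29 and 10.55 in IFNbeta, 10.09, 9.72, 9.89, 9.43 and 9.28 in p19Arf and 9.53, 9.87, 9.94, 10.03 and 10.04 in eGFP. Here too the IFNbeta arrays lay above all p19Arf+IFNbeta arrays, and 1 p19Arf array overlapped them. The departure was −0.57 (−1.05 to −0.08, unadjusted p = 0.0245 in limma, adjusted p = 1). Herc6, the ligase that attaches Isg15 in mouse, had a departure of −0.36 (−0.70 to −0.02). The receptor of viral RNA Ddx58 had −0.29, Ifih1 −0.27 and Dhx58 −0.22. The signalling factors of the pathway had departures of 0.0005 for Irf9, −0.08 for Stat2 and −0.12 for Irf7. This was not particular to signalling factors, since Oasl2 at −0.07, Oas1b at −0.08 and Zbp1 at 0.03 lay as near 0. Isg20, an exonuclease, had the highest value of the list at 0.10 (−0.41 to 0.61), and its sign turned with array weights.

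**Figure D3:**
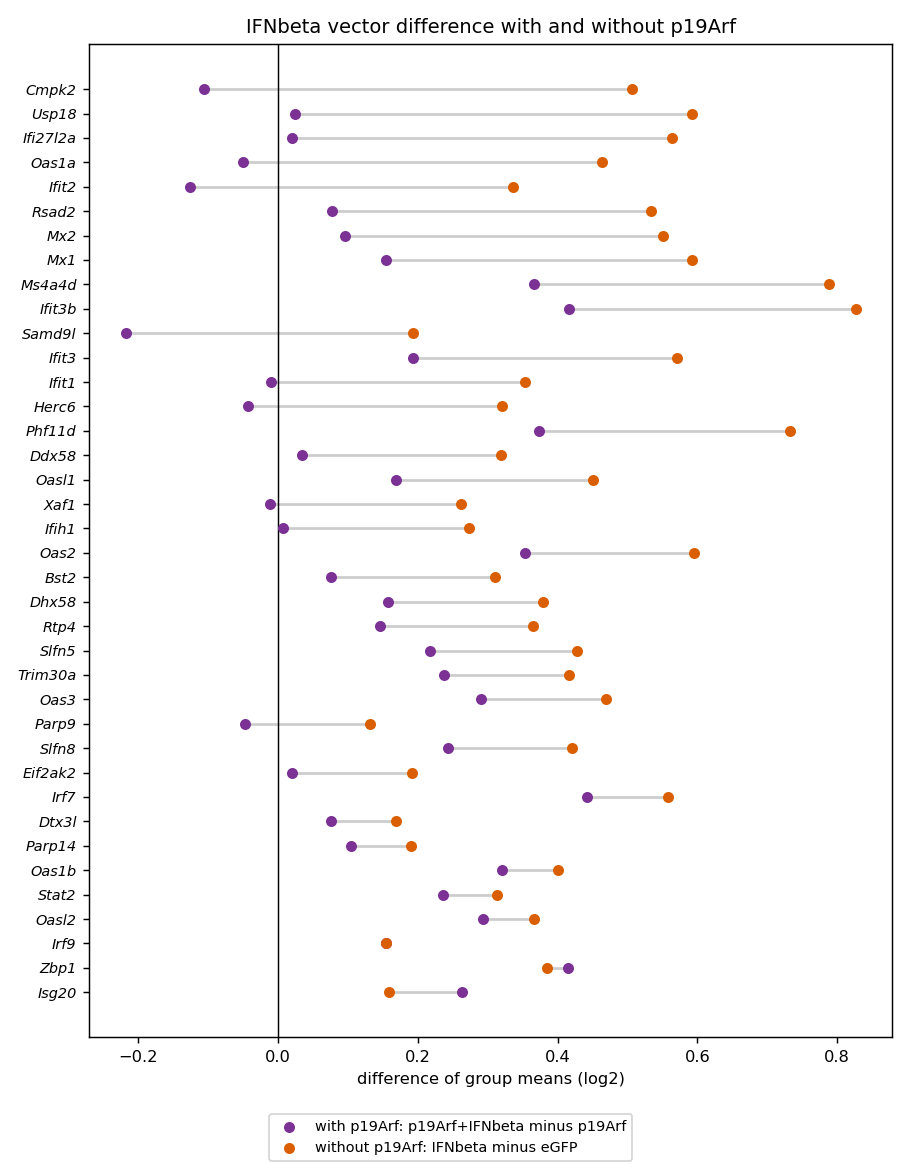
For each of the 38 measured type I interferon genes, the difference of group means (log2) made by the IFNbeta vector with p19Arf (p19Arf+IFNbeta minus p19Arf) and without it (IFNbeta minus eGFP). IFNbeta minus eGFP is above 0 for all 38 genes, p19Arf+IFNbeta minus p19Arf is above 0 for 30 of them, and the difference without p19Arf is the larger for 35.

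Interferon-inducible GTPases, which attack vacuoles of intracellular pathogens and respond to type I and type II interferon, did not lie to one side. Only 9 of the 18 entries of this list were measured. Of these 9 members 5 were positive and 4 negative, with a median of 0.02 and a score departure of 0.06 (SE 0.17). The score was 9.72 ± 0.19 in p19Arf+IFNbeta, 9.62 ± 0.13 in IFNbeta, 9.48 ± 0.28 in p19Arf and 9.44 ± 0.15 in eGFP. p19Arf+IFNbeta lay above p19Arf in 9 of 9 members and IFNbeta above eGFP in 9 of 9. The highest departure was that of Gbp8 at 0.34 (−0.23 to 0.91) and the lowest that of Gbp3 at −0.11 (−0.54 to 0.32). The score departure turned to −0.05 without p19Arf replicate 5, whose Gbp3 value of 9.17 lay below the 9.73 to 9.81 of the other p19Arf arrays, and was 0.20 with array weights. Of the 3 CXCR3 ligands, which attract activated T and NK cells, 2 were positive and 1 negative, with a median of 0.34. Their score departure was 0.23 (SE 0.165) and ran from 0.15 to 0.30 with each array left out. Cxcl10 was highest at 0.43 (−0.09 to 0.95) and Cxcl11 lowest at −0.08 (−0.46 to 0.31).

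The gene with the smallest p below the prediction was Fcrl5, a B cell surface protein of the Fc receptor-like family. It measured 6.95, 6.99, 7.02, 6.56 and 6.53 in p19Arf+IFNbeta, 7.49, 7.40, 7.04, 7.43 and 7.92 in IFNbeta, 6.83, 6.71, 6.97, 7.17 and 6.65 in p19Arf and 6.56, 6.95, 6.94, 6.84 and 6.70 in eGFP. The IFNbeta arrays were the high ones, with replicate 3 just above the highest p19Arf+IFNbeta array and below the highest p19Arf array. Its departure was −0.71 ± 0.20 (SE, 95% interval −1.13 to −0.30), with an unadjusted p of 0.00173 in limma and an adjusted p of 1. The B and plasma cell list to which it belongs had 9 negative and 7 positive departures among 16 members, with a median of −0.04, so Fcrl5 lay far from the list median. The score of that list was 7.07 ± 0.19 in p19Arf+IFNbeta, 7.06 ± 0.09 in IFNbeta, 7.22 ± 0.48 in p19Arf and 7.13 ± 0.24 in eGFP, and its departure of −0.08 was 0.13 without p19Arf replicate 3, the array with the highest score, 8.05, and −0.45 with array weights.

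Samd9l and Cmpk2, described above with the interferon list, were also among the 12 genes of smallest p below the prediction. Of the others, Cd5l, a secreted protein of macrophages, had a departure of −0.70 (−1.20 to −0.19) and Cyp3a25, a cytochrome P450, −0.63 (−1.15 to −0.12). The p19Arf mean of Cyp3a25 rested on replicate 4, at 6.41 beside 5.05 to 5.53 in the other p19Arf arrays. Rbm12b2, an RNA-binding protein, had −0.52, the zinc finger genes Zfp820 and Zfp52 −0.50 and −0.42, and Prl8a9, of the placental prolactin family, −0.47. Arrdc3, an arrestin-like adaptor of receptor trafficking, measured 9.78, 9.96, 9.71, 9.72 and 9.82 in p19Arf+IFNbeta, 10.19, 10.05, 10.24, 10.18 and 10.14 in IFNbeta, 9.97, 10.05, 9.87, 9.79 and 9.64 in p19Arf and 9.82, 10.01, 9.73, 9.97 and 9.87 in eGFP. The IFNbeta arrays lay above all p19Arf+IFNbeta and eGFP arrays and met the highest p19Arf array at 10.05, with a departure of −0.35 (−0.60 to −0.09). Nap1l2, a histone chaperone, had −0.35 and Nemp1, a nuclear envelope protein, −0.32. Cyp3a25, Nap1l2, Prl8a9 and Cd5l had low values, with group means from 5.02 to 6.33. Fcrl5 and Zfp820 also lay below the median level of all genes.

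The gene with the smallest p of all 19938 was Aldh1b1, a mitochondrial aldehyde dehydrogenase, which lay above the prediction. It measured 7.36, 7.14, 7.62, 7.59 and 7.37 in p19Arf+IFNbeta, 7.07, 7.12, 7.23, 7.07 and 6.94 in IFNbeta, 7.06, 7.12, 7.08, 6.97 and 7.17 in p19Arf and 7.31, 7.28, 7.21, 7.06 and 7.34 in eGFP. Both single-vector means lay below eGFP while that of the combination lay above it, and p19Arf+IFNbeta overlapped eGFP and, with replicate 2, IFNbeta and p19Arf. The departure was 0.49 ± 0.13 (SE, 95% interval 0.23 to 0.76, unadjusted p = 0.000953 in limma, adjusted p = 1). Olfml1, a secreted olfactomedin-like protein, measured 6.07, 6.07, 6.36, 6.20 and 6.05 in p19Arf+IFNbeta, 5.73, 5.86, 5.79, 5.81 and 5.81 in IFNbeta, 6.06, 6.01, 5.83, 6.00 and 5.80 in p19Arf and 6.02, 5.99, 6.11, 5.83 and 6.04 in eGFP. The p19Arf+IFNbeta arrays lay above all IFNbeta arrays and overlapped the other groups, with a departure of 0.41 (0.17 to 0.65).

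Of the other genes of smallest p above the prediction, Fignl2, an AAA family ATPase, had 0.52 (0.15 to 0.89), Ccdc177 0.45, Pramel20 0.44, Lactbl1 0.43 and Pura, a single-stranded nucleic acid binding protein, 0.39. Cygb, the oxygen-binding protein cytoglobin of fibroblast-like cells, had 0.39 (0.09 to 0.68). It measured 8.36, 8.19, 8.54, 8.80 and 8.38 in p19Arf+IFNbeta, 8.18, 8.01, 8.01, 8.15 and 7.87 in IFNbeta, 8.17, 8.18, 8.21, 8.29 and 8.31 in p19Arf and 8.35, 8.21, 8.29, 8.00 and 8.19 in eGFP. The combination arrays lay above all IFNbeta arrays. Grin2c, an NMDA receptor subunit, had 0.39, Lefty1, a secreted inhibitor of Nodal, 0.38, Pdcl2, a phosducin-like protein, 0.34 and Ebf4, of the early B cell factor family, 0.32. Pdcl2, Pramel20 and Olfml1 had low values, with group means from 4.54 to 6.15. Of all 12 genes of smallest p above the prediction, Aldh1b1 included, only Pura and Cygb lay above the median level of all genes. For the 24 genes of smallest p the departure kept its sign in all 224 values under other settings and all 480 with 1 array left out, but these genes were chosen for their small p on the same arrays.

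**Figure D4:**
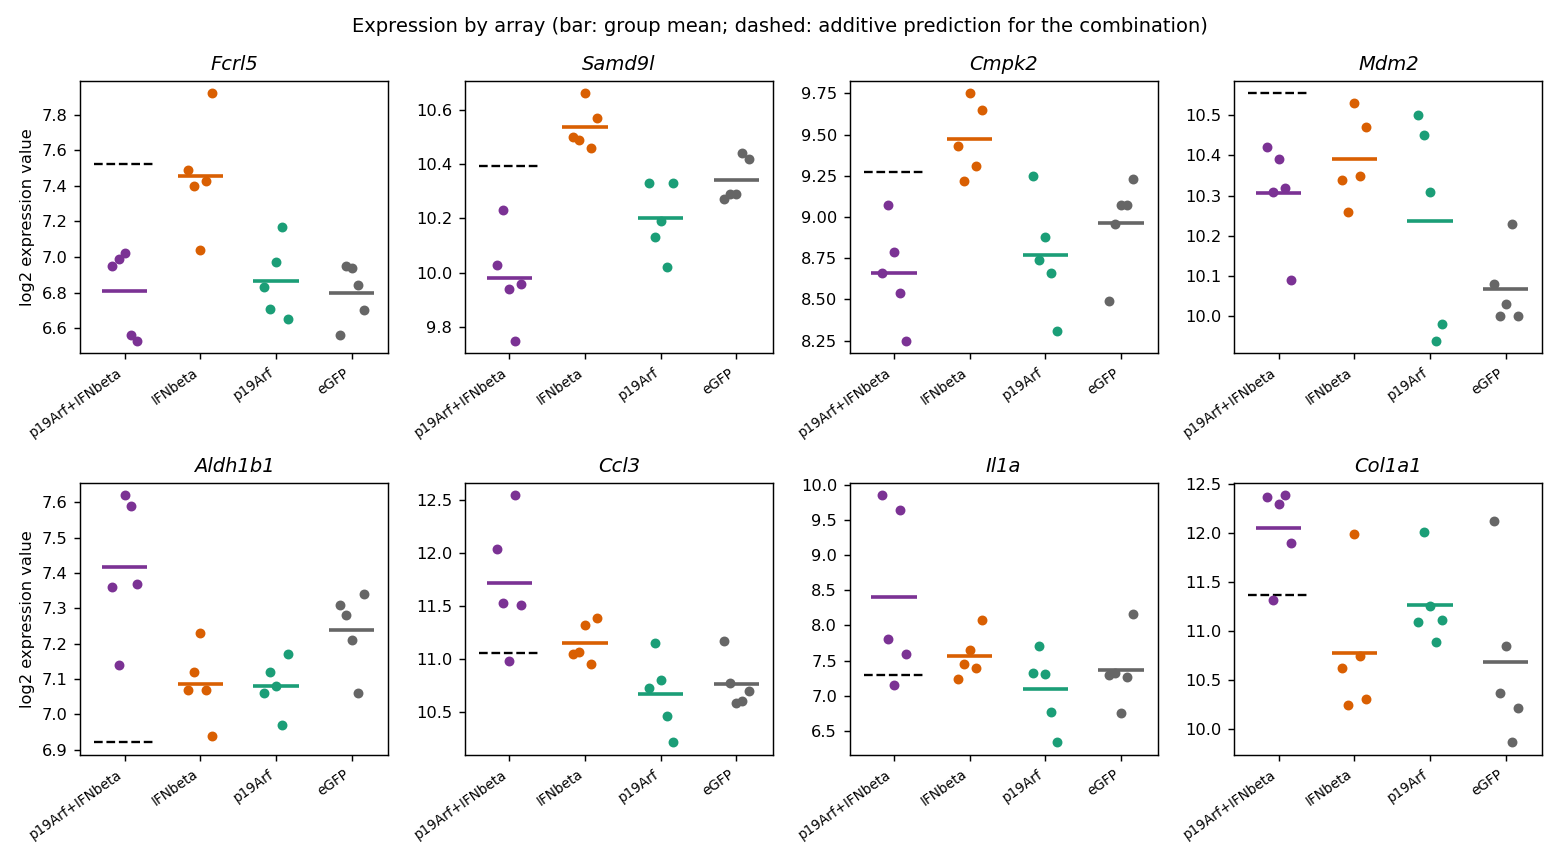
Log2 values of 8 genes on each array by group, with the group mean as a bar and the additive prediction for p19Arf+IFNbeta as a dashed line. The combination mean lies below the prediction for Fcrl5, Samd9l, Cmpk2 and Mdm2 and above it for Aldh1b1, Ccl3, Il1a and Col1a1, where Il1a is carried by 2 arrays at 9.85 and 9.64.

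Genes of inflammation lay mostly above the prediction. Of 26 NF-kB regulators and inflammatory cytokines, 23 had a positive and 3 a negative departure, beside 52.2% positive among all genes, with a median of 0.13 and none past the threshold. The score was 8.74 ± 0.19 in p19Arf+IFNbeta, 8.61 ± 0.11 in IFNbeta, 8.50 ± 0.15 in p19Arf and 8.53 ± 0.10 in eGFP, a departure of 0.16 (SE 0.13) that was 0.10 without p19Arf+IFNbeta replicate 4. Il1a, the alarmin of dying and activated cells, measured 9.85, 7.80, 7.15, 9.64 and 7.59 in p19Arf+IFNbeta, 7.24, 7.45, 7.65, 7.39 and 8.08 in IFNbeta, 7.33, 7.70, 7.31, 6.77 and 6.34 in p19Arf and 7.30, 7.33, 6.75, 7.27 and 8.16 in eGFP. Replicates 1 and 4 of the combination carried its mean, and the other 3 lay within the range of the other groups. The departure of 1.12 had a wide interval, −0.07 to 2.30. Tnf, the inflammatory cytokine, measured 9.14, 8.70, 8.68, 8.91 and 8.33 in p19Arf+IFNbeta, 8.40, 8.29, 8.13, 8.25 and 8.84 in IFNbeta, 8.20, 8.42, 8.37, 8.68 and 7.99 in p19Arf and 8.76, 8.74, 8.31, 8.14 and 8.36 in eGFP. Its groups overlapped, and the departure was 0.50 (0.03 to 0.97, unadjusted p = 0.0378 in limma, adjusted p = 1). Lif, a cytokine of the interleukin 6 family, was lowest at −0.26 (−0.68 to 0.17).

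Of 9 neutrophil-attracting CXC and MIP-1 chemokines, 7 were positive and 2 negative, with a median of 0.21 and a score departure of 0.22 (SE 0.19). The score was 8.98 ± 0.32 in p19Arf+IFNbeta, 8.87 ± 0.17 in IFNbeta, 8.56 ± 0.13 in p19Arf and 8.67 ± 0.16 in eGFP, and the departure was 0.10 without p19Arf+IFNbeta replicate 4. Ccl3, the inflammatory chemokine MIP-1 alpha, measured 12.04, 11.53, 10.98, 12.55 and 11.51 in p19Arf+IFNbeta, 11.05, 11.06, 11.32, 10.95 and 11.39 in IFNbeta, 10.72, 11.15, 10.80, 10.46 and 10.21 in p19Arf and 11.17, 10.77, 10.58, 10.60 and 10.70 in eGFP. All arrays of the combination except replicate 3 lay above all other arrays. The departure was 0.66 (0.04 to 1.29, unadjusted p = 0.0384 in limma, adjusted p = 1). Cxcl3, a ligand of the neutrophil receptor Cxcr2, measured 8.89, 8.56, 8.20, 9.43 and 8.53 in p19Arf+IFNbeta, 8.10, 8.08, 8.26, 8.06 and 8.39 in IFNbeta, 8.11, 8.40, 8.01, 7.96 and 7.76 in p19Arf and 8.34, 8.03, 7.98, 7.83 and 8.06 in eGFP. Replicate 3 of the combination was again the low array of its group, and the departure was 0.55 (0.06 to 1.03). Ppbp, a platelet chemokine precursor, went the other way at −0.62 (−1.42 to 0.18).

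Neutrophil markers, which were set beside these chemokines, had 18 positive and 2 negative departures among 20 members, with a median of 0.18. Their score was 7.99 ± 0.24 in p19Arf+IFNbeta, 7.85 ± 0.11 in IFNbeta, 7.74 ± 0.14 in p19Arf and 7.77 ± 0.12 in eGFP, and its departure of 0.17 (SE 0.14) was 0.10 without p19Arf+IFNbeta replicate 1. By array the combination scored 8.28, 8.05, 7.71, 8.13 and 7.76, so the arrays with the highest Il1a and Ccl3, replicates 1 and 4, also had the highest neutrophil scores. The part of neutrophils in those values was not tested. S100a8, a calcium-binding protein of granulocytes, was highest at 0.52 (−0.09 to 1.12) and Ly6g, the granulocyte surface antigen, lowest at −0.40 (−1.14 to 0.33). Of 16 chemokine receptors 9 were positive, among them Cxcr1, an interleukin 8 receptor, at 0.37 (0.02 to 0.71), and Cxcr5 was lowest at −0.18. The 13 other CC chemokines split 6 positive to 7 negative, from Ccl17 at 0.22 to Ccl9 at −0.09.

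On the p53 side, 7 of 9 measured members of the core and Arf axis and 20 of 32 p53 targets lay below the prediction, with medians of −0.09 and −0.09 and none past the threshold. The target score was 8.76 ± 0.02 in p19Arf+IFNbeta against a prediction of 8.85, with 8.84 ± 0.09 in IFNbeta, 8.72 ± 0.13 in p19Arf and 8.71 ± 0.06 in eGFP. Its departure was −0.09 (SE 0.08), and −0.04 without p19Arf replicate 2. Mdm2, both the target of p19Arf binding and a p53 target gene, measured 10.42, 10.31, 10.39, 10.32 and 10.09 in p19Arf+IFNbeta, 10.34, 10.26, 10.53, 10.35 and 10.47 in IFNbeta, 10.50, 10.45, 10.31, 9.94 and 9.98 in p19Arf and 10.08, 10.00, 10.03, 10.23 and 10.00 in eGFP. All 5 IFNbeta arrays and 4 of the 5 combination arrays lay above the eGFP arrays, and the p19Arf arrays split into 3 above and 2 below them. The prediction for the combination was 10.55, above the highest single array, and the departure was −0.25 (−0.56 to 0.06).

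Eda2r, a death receptor of the tumor necrosis factor receptor family and a p53 target, measured 7.62, 8.03, 7.93, 8.11 and 7.96 in p19Arf+IFNbeta, 8.01, 8.06, 8.27, 8.39 and 8.48 in IFNbeta, 8.03, 8.39, 7.74, 7.70 and 7.74 in p19Arf and 7.57, 7.95, 7.71, 8.00 and 7.77 in eGFP. Each IFNbeta array exceeded each eGFP array, and both p19Arf-carrying groups overlapped them. The departure was −0.43 (−0.82 to −0.04, unadjusted p = 0.0329 in limma, adjusted p = 1). Phlda3, an inhibitor of Akt, had −0.35 (−0.68 to −0.03), and Plk3, a stress kinase, was highest at 0.19. Of 23 cell death effectors 13 were negative and 10 positive, from Tnfsf10, the ligand TRAIL, at −0.28 (−0.68 to 0.12) to Gsdmd, the pore former of pyroptosis, at 0.24 (−0.31 to 0.79).

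All 33 measured cell cycle genes lay below the prediction, with a median of −0.20, yet none had an unadjusted p under 0.05. Their score was 9.91 ± 0.33 in p19Arf+IFNbeta, 10.23 ± 0.24 in IFNbeta, 10.04 ± 0.18 in p19Arf and 10.17 ± 0.16 in eGFP, a departure of −0.18 with a standard error of 0.21. By array it was 10.19, 10.25, 9.87, 9.43 and 9.81 in the combination, 10.25, 10.35, 9.81, 10.37 and 10.35 in IFNbeta, 10.31, 9.87, 10.13, 9.93 and 9.94 in p19Arf and 9.91, 10.23, 10.27, 10.30 and 10.16 in eGFP. The lowest array, p19Arf+IFNbeta replicate 4, is also the one of narrowest spread, 1.99, and without it the departure was −0.06. It was −0.29 without IFNbeta replicate 3, −0.11 without p19Arf replicate 1 and −0.12 without eGFP replicate 1. Mcm4, a subunit of the replicative helicase, was lowest at −0.37 (−1.06 to 0.32) and Birc5, the mitotic protein survivin, nearest 0 at −0.02 (−0.49 to 0.45).

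The stress programs sat on the same side, with smaller values and smaller standard errors than the cell cycle score. The score departure was −0.13 (SE 0.09) for the unfolded protein and integrated stress response and −0.11 (SE 0.07) for hypoxia and glycolysis. Of 25 genes of the unfolded protein and integrated stress response 23 were negative, with a median of −0.15 and a score of 10.65 ± 0.13 in p19Arf+IFNbeta, 10.82 ± 0.08 in IFNbeta, 10.65 ± 0.11 in p19Arf and 10.69 ± 0.05 in eGFP. Pdia4, a disulfide isomerase of the endoplasmic reticulum, was lowest at −0.29 (−0.67 to 0.08) and Ppp1r15a (Gadd34), which restores translation after stress, highest at 0.21 (−0.13 to 0.55). Of 21 hypoxia and glycolysis genes 18 were negative, from Bnip3, a mitophagy receptor, at −0.28 (−0.71 to 0.14) to Car9, a carbonic anhydrase, at 0.11 (−0.28 to 0.51). These lists, like the cell cycle list, consist of highly expressed genes, and the part of the array spread in their values was not tested apart from the fit with spread as a covariate, in which the departures stayed negative.

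Of the antigen presentation lists, MHC class II lay mostly above the prediction and MHC class I did not lie to one side. For MHC class I and peptide loading, 11 of 17 entries were measured. Of these, 5 were positive and 6 negative, from the transporter Tap2 at 0.22 (−0.14 to 0.58) to the immunoproteasome subunit Psmb8 at −0.14 (−0.52 to 0.25). For MHC class II 7 of 8 were positive, with a median of 0.23 and a score of 9.98 ± 0.19 in p19Arf+IFNbeta, 9.81 ± 0.25 in IFNbeta, 9.88 ± 0.19 in p19Arf and 9.93 ± 0.12 in eGFP. Its departure was 0.22 (SE 0.17), and 0.13 without IFNbeta replicate 3. H2-Aa was highest at 0.41 (−0.33 to 1.15), which was 0.17 without p19Arf replicate 2 and 0.13 with array weights, and H2-Ob lowest at −0.06 (−0.67 to 0.55).

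Lymphocyte lists had score departures smaller than their standard errors, which does not show that they were additive. T cell markers had 11 positive of 16 and a score departure of 0.05 (SE 0.16), NK cell markers 5 positive of 14 and −0.04 (SE 0.13), and cytotoxic effectors 8 positive of 13 and 0.12 (SE 0.19). The T cell score departure turned to −0.06 without p19Arf+IFNbeta replicate 1, whose T cell score of 8.51 was the highest of all arrays. The NK cell departure ran from −0.13 without p19Arf+IFNbeta replicate 1 to 0.02 without p19Arf+IFNbeta replicate 4, and that of the cytotoxic effectors from 0.05 without eGFP replicate 2 to 0.21 without p19Arf+IFNbeta replicate 5. Gzmg, a granzyme, had 0.56 (−0.32 to 1.44) and Gzmb, the main granzyme of cytotoxic lymphocytes, −0.19 (−0.96 to 0.57). Gzmb measured 10.31, 9.30, 9.03, 8.54 and 8.12 in p19Arf+IFNbeta, 9.67, 9.25, 9.77, 9.22 and 9.95 in IFNbeta, 8.80, 8.32, 8.77, 8.50 and 8.41 in p19Arf and 8.83, 9.13, 8.56, 8.98 and 8.89 in eGFP. The combination arrays spread over the whole range of the other groups. The T cell receptor chain Cd3g had −0.28, Thy1 0.22, the NK receptors Klrd1 −0.30 and Ncr1 0.22, and the checkpoint receptors Pdcd1 −0.15 and Tnfrsf18 0.25, all with intervals that include 0.

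Among myeloid cells, macrophage and monocyte markers had 9 positive and 13 negative of 22, from Cd14, the lipopolysaccharide co-receptor, at 0.27 to Chil3, a chitinase-like protein, at −0.61 (−1.49 to 0.27). Dendritic cell markers had 6 positive of 17, from Snx22 at 0.16 to Xcr1, the receptor that marks cross-presenting cells, at −0.33 (−0.73 to 0.08). Mast cell, eosinophil and basophil markers split 8 to 8, from the mast cell carboxypeptidase Cpa3 at 0.39 (−0.37 to 1.16; 0.18 without IFNbeta replicate 3 and 0.11 with array weights) to the mast cell protease Mcpt2 at −0.66 (−1.21 to −0.10, unadjusted p = 0.0229 in limma, adjusted p = 1). Mcpt2 was a weakly expressed gene, between 4.86 and 6.19 on all arrays.

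Stromal genes lay mostly above the prediction. Of 23 fibroblast and matrix genes 19 were positive, with a median of 0.24. The score was 9.81 ± 0.28 in p19Arf+IFNbeta, 9.53 ± 0.14 in IFNbeta, 9.54 ± 0.12 in p19Arf and 9.50 ± 0.22 in eGFP. Its departure was 0.23 (SE 0.18), 0.12 without p19Arf+IFNbeta replicate 1 and 0.15 without eGFP replicate 1. Col1a1, a chain of type I collagen, measured 12.37, 11.32, 12.30, 12.39 and 11.90 in p19Arf+IFNbeta, 10.62, 10.24, 11.99, 10.74 and 10.30 in IFNbeta, 11.09, 12.01, 11.25, 10.89 and 11.11 in p19Arf and 12.12, 10.36, 10.85, 9.86 and 10.21 in eGFP. In each of the other 3 groups 1 array reached the range of the combination, and the departure was 0.69 (−0.35 to 1.72). Col6a1, a chain of type VI collagen, measured 9.54, 9.18, 9.35, 9.47 and 9.10 in p19Arf+IFNbeta, 8.97, 8.85, 9.03, 9.03 and 8.60 in IFNbeta, 8.93, 9.04, 9.03, 8.99 and 9.24 in p19Arf and 9.47, 8.82, 9.01, 8.87 and 9.11 in eGFP. The combination arrays lay above all IFNbeta arrays, with a departure of 0.44 (0.09 to 0.79, unadjusted p = 0.015 in limma, adjusted p = 1). Fbln1, a matrix glycoprotein, had 0.38 (0.003 to 0.77), and Lum, the proteoglycan lumican, was lowest at −0.14 with an interval from −1.65 to 1.36.

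Of 19 endothelial markers 16 were positive, with a median of 0.08. Their score was 8.29 ± 0.06 in p19Arf+IFNbeta, 8.31 ± 0.04 in IFNbeta, 8.16 ± 0.06 in p19Arf and 8.28 ± 0.09 in eGFP, so p19Arf alone was the low group. Plvap, of the diaphragms of fenestrated vessels, had 0.41 (0.06 to 0.76) and the tight junction protein Cldn5 0.34 (0.02 to 0.66), while Aplnr, the apelin receptor of sprouting vessels, was lowest at −0.26. Erythroid and platelet markers, with 8 of 16 entries measured, had 7 positive of 8, from the red cell anion exchanger Slc4a1 at 0.38 to Ppbp at −0.62. Circadian clock genes had 11 positive of 17, from Per1 at 0.43 (−0.02 to 0.89) to Bhlhe41 at −0.28.

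Markers of skeletal muscle and skin epidermis had the largest standard errors among the 35 list scores, and lists of adipocyte and hair follicle genes are given beside them. Of 23 skeletal muscle markers 21 were negative, with a median of −0.53. Their score was 8.23 ± 0.57 in p19Arf+IFNbeta, 8.26 ± 0.71 in IFNbeta, 7.98 ± 0.58 in p19Arf and 7.53 ± 0.25 in eGFP, a departure of −0.47 with a standard error of 0.50. It was −0.22 without IFNbeta replicate 4, −0.27 without p19Arf+IFNbeta replicate 3 and −0.30 without p19Arf replicate 2, but −0.71 without IFNbeta replicate 1. Myh4 measured 7.21, 9.87, 6.41, 8.35 and 9.36 in p19Arf+IFNbeta, 6.61, 9.23, 8.61, 10.08 and 8.32 in IFNbeta, 8.81, 9.19, 6.78, 6.66 and 8.32 in p19Arf and 6.70, 6.58, 6.96, 6.58 and 7.83 in eGFP. Every vector group held arrays at the eGFP level and arrays far above it, and the interval of the departure ran from −3.19 to 0.49. Myh7, the slow myosin, was highest at 0.09. The muscle content of the tumor pieces was not recorded in the sources used here, and its part in other values was not tested.

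Of 13 adipocyte markers 11 were negative, with a score departure of −0.22 (SE 0.25) that was −0.12 without IFNbeta replicate 1. Lpl, lipoprotein lipase, had −0.52 (−0.997 to −0.04) and Car3, a carbonic anhydrase of fat and muscle, −0.60 (−2.23 to 1.02), which was −0.13 without eGFP replicate 1 and −0.94 without p19Arf replicate 4, while Plin1, the coat protein of lipid droplets, was highest at 0.05. Of 17 skin epidermis markers 12 were negative with a score departure of −0.11 (SE 0.39), and 1 array carried the IFNbeta group: replicate 3 scored 8.57, against 6.70 to 6.83 on the others, and without it the departure was 0.24. Krtdap, a keratinocyte differentiation protein, was at 8.57 on that array and between 5.37 and 5.65 on the other IFNbeta arrays. Sprr1a, a cornified envelope protein, was highest at 0.35 (−0.13 to 0.83). Of 16 hair follicle keratins 15 were positive, with a score departure of 0.21 (SE 0.15) that was 0.11 without eGFP replicate 5. The highest was Krt28, a keratin of the inner root sheath, at 0.36 (−0.06 to 0.78), and Padi3, a deiminase of the follicle, lay closest to 0 from below.

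**Figure D5:**
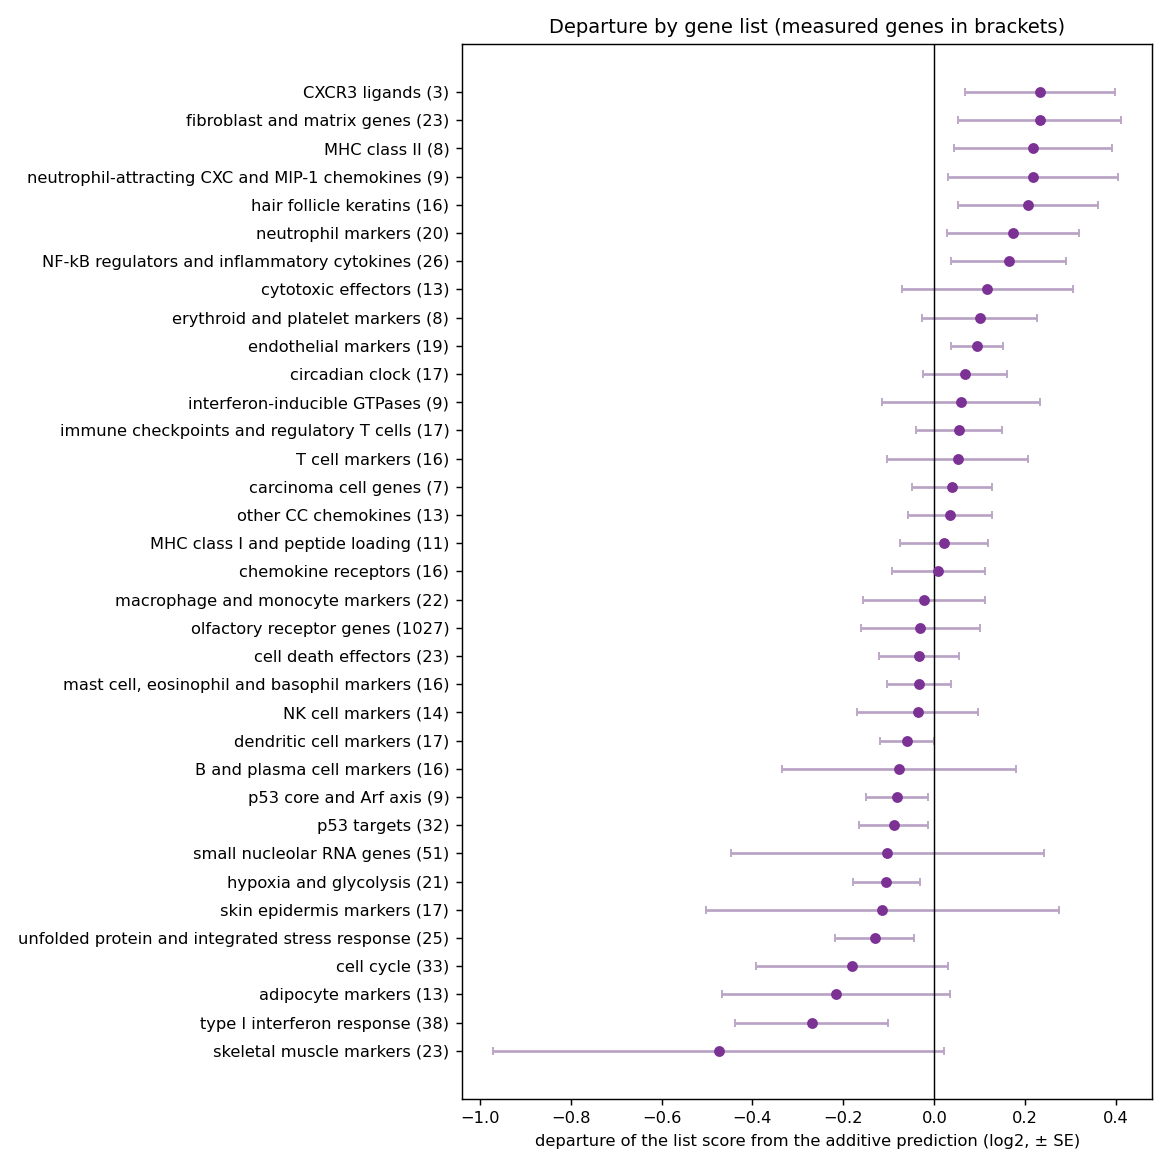
Departure of each list score from the additive prediction (log2), with its standard error from the spread within groups as a bar and the number of measured genes in brackets. The type I interferon score lies at −0.27 and the skeletal muscle score at −0.47 with the widest bar, while the lists of inflammation, neutrophils and matrix lie between 0.16 and 0.23.

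A further description is how often 1 group lay wholly to one side of the other 15 arrays. The combination did so for 0 genes, above or below (0%), and eGFP likewise for 0 (0%). The 5 IFNbeta arrays lay above all others for 7 genes (0.0351%), which were Ddx58, Ifit3b, Phf11d, Samd9l, Slfn8, Slfn10-ps and Trim30d, and below all others for 3 (0.015%), Olfr603, Tlx3 and Zfp352. The 5 p19Arf arrays lay above all others for 2 genes (0.01%), Olfr136 and Smim9, and below them for 1 (0.00502%), Aff1, a subunit of the super elongation complex. These names were taken after their values were seen. The 7 genes above in IFNbeta include 5 members of the type I interferon list, and their departures ran from −0.41 for Samd9l and Ifit3b to −0.08 for Slfn10-ps. These 7 genes were picked for high IFNbeta values, and the departure subtracts the IFNbeta mean. The choice thus favoured negative departures, and these values are not separate evidence.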

How the data were processed

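RNA from 20 tumors was hybridised to 1-colour Affymetrix arrays after biotin labelling, per the labels' protocols. The deposited table holds log2 values that the authors had summarised and normalized, for 35556 probe sets. Base 2 was inferred from the range of the values. Per the submitters' processing notes the tools were Affymetrix Expression Console and GCOS. The sources used here give no versions, summarisation method, background correction or filter. No normalization was added. Precision is limited by the number of arrays, and no background estimate was at hand.

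Gene names of probe sets came from GEO's platform annotation, brought up to date with RefSeq (GRCm38.p6). Exactly 1 symbol belonged to 21789 probe sets, several to 1621 and none to 12146, and 91 gene identifiers had no match. The 4 group means were estimated from all 20 arrays together in limma 3.58.1 (R 4.3.3), with 16 residual and 6.06 prior degrees of freedom, 2-sided tests and Benjamini-Hochberg adjustment over 19938 genes at a threshold of 0.05. The fit was tested on simulated data only with departures larger than any found here, so that test does not cover departures of the size found. A list score is the mean log2 value of its measured genes; its standard error uses the pooled spread within groups. In 33 lists 641 entries were written, and 560 different genes were measured; olfactory receptor and small nucleolar RNA genes were added by symbol. The olfactory genes (1027) had 601 negative departures and a median of −0.03, and the small nucleolar RNA genes (51) had 32 and −0.07.

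Named genes are the vector genes, the 12 of each sign with the smallest p (leaving out predicted and unnamed genes, receptor segments, olfactory genes and small RNAs) and the highest and lowest member of each list. Others named were chosen after their values were seen. Members and lists were chosen with earlier results of these data known. Replicate numbers did not pair arrays: deviations of same-numbered arrays in different groups correlated at a median of −0.048 (−0.624 to 0.657) over 30 pairs, so no block was used. Alternatives were quantile normalization, median centring, a level filter, the mean of probe sets, trended and robust moderation, array weights, array spread as a covariate, a linear scale, the replicate block and leaving out each array.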

Additional observations from a re-analysis of the deposited data

Results flagged for a closer look

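Within a group of 5 arrays, 1 array stood far from the other 4 in 30 of the 492 gene and list values examined in groups, and chance alone sets about 1 in 20 such groups apart. The values below give that array beside the range of the other 4 of its group, and no cause was tested.

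IFNbeta replicate 3 was the distant array most often. Its skin epidermis score was 8.57 against 6.70 to 6.83, and Krtdap was at 8.57 against 5.37 to 5.65. Its cell cycle score was 9.81 against 10.25 to 10.37, with Mcm4 at 9.24 against 9.99 to 10.23. Lum was at 7.95 against 9.79 to 10.31, Col1a1 at 11.99 against 10.24 to 10.74 and Ifnb1 at 6.65 against 6.03 to 6.20. Elsewhere in IFNbeta, Ccdc177 was at 6.62 in replicate 1 against 6.21 to 6.33, and in replicate 5 Prl8a9 was at 5.92 against 5.49 to 5.59 and Cxcr5 at 6.44 against 5.82 to 5.98.

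In p19Arf+IFNbeta, Tnfsf10 was at 7.53 in replicate 4 against 8.05 to 8.14, and the B and plasma cell score was 7.39 in replicate 3 against 6.93 to 7.06. In p19Arf, replicate 2 had Gsdmd at 9.79 against 8.75 to 9.02, Plin1 at 6.90 against 7.45 to 7.59, Per1 at 9.49 against 8.76 to 8.91 and a small nucleolar RNA score of 10.46 against 9.50 to 9.75. Replicate 5 had Gbp3 at 9.17 against 9.73 to 9.81 and Tnfsf10 at 7.52 against 7.97 to 8.09. Replicate 3 had Ncr1 at 6.20 against 6.01 to 6.06 and a T cell score of 8.04 against 7.81 to 7.86. Krt28 was at 5.28 in replicate 1 against 5.79 to 5.93, and Prl8a9 at 5.86 in replicate 4 against 5.29 to 5.42.

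In eGFP, replicate 3 had Cd3g at 8.32 against 7.91 to 8.02 and Xcr1 at 7.70 against 7.16 to 7.27. In replicate 5 the skin epidermis list scored 7.48, beside 6.80 to 7.0, with Rbm12b2 at 8.73 against 8.96 to 9.04 and Slc4a1 at 8.08 against 7.36 to 7.53. Tnfrsf18 was at 8.40 in replicate 1 against 7.92 to 8.03, Cd14 at 9.24 in replicate 2 against 8.62 to 8.70, and the B and plasma cell score at 7.55 in replicate 4 against 6.91 to 7.09.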

How the results depend on the processing

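Under every setting, and with each array left out, 0 genes passed at an adjusted p under 0.05, and the smallest adjusted p ran from 0.618 to 1. The count at an unadjusted p under 0.05 was 260 of 19938 genes (1.3%) as reported. Of the same 19938 genes it was 454 after quantile normalization, 1121 with array weights and 763 with array spread as a covariate. It was 1304 of them without IFNbeta replicate 3 and p19Arf replicate 4 together, and 1121 and 1304 are above 5%. The count was 77 over the genes above the median level alone and 626 over all 35556 probe sets. Their totals differ from 19938, so these counts do not compare directly with 260. Leaving out both arrays and using all probe sets were chosen after seeing the data. Leaving out 1 array gave 166 to 715, with 715 without p19Arf replicate 4, 592 and 469 without p19Arf+IFNbeta replicates 2 and 1, 476 without IFNbeta replicate 3, 405 without eGFP replicate 4, and 166 and 171 without eGFP replicates 1 and 5. Other settings gave 258 to 283. With the replicate block, although the numbers did not pair the arrays (3 of 20 arrays correlated best with their own number), it was 233. Of 841 departures of the 88 named genes under other settings, 827 kept their sign. The reversed ones were Cdkn2a −0.049 and Birc5 0.025 (quantile), Isg20 −0.089, Gbp3 0.057, Ccl17 −0.13, Pdcd1 0.049 and Fcrl1 −0.11 (array weights), Lum 0.018 (array spread), Padi3 0.004 (linear scale), and Ifnb1 0.081, Isg20 −0.076, Gbp3 0.038, Padi3 0.062 and Cdh1 0.033 (both arrays left out). With single arrays left out, 13 genes turned sign in 40 of 1760 values. Their ranges were −0.041 to 0.10 for Cdkn2a, −0.17 to 0.036 for Ifnb1, −0.01 to 0.26 for Isg20, −0.23 to 0.014 for Gbp3, −0.14 to 0.042 for Cxcl11, −0.23 to 0.016 for Ccl9, −0.12 to 0.12 for Birc5, −0.20 to 0.20 for H2-Ob, −0.51 to 0.041 for Gzmb, −0.61 to 0.20 for Lum, −0.092 to 0.055 for Padi3, −0.077 to 0.16 for Plin1 and −0.11 to 0.085 for Cdh1. The cause was not tested. Of 35 list scores, 24 kept their sign under every other setting and 20 also with each array left out. Leaving out 1 array moved 33 of 35 list scores and 47 of 88 named genes by over 1.5 times at least once, and array weights moved 17 and 30. The linear scale, on which additive means that differences and not folds add, gave −0.35 for the type I interferon score. The sources used here do not say how far probe signals stand above background.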
